A study of Mus musculus with 4 samples.

Results

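The genes described here take part in the uptake of fatty acids by cells and in their storage in lipid droplets. They were 10 of the 24418 genes listed in the data, chosen by name: Cd36, Scarb1, Slc27a1 and Slc27a4 for uptake at the membrane, Fabp5 for transport inside the cell, Dgat1, Dgat2 and Plin2 for storage, and Pnpla2 and Lipe for lipolysis. RNA was sequenced from regulatory T (Treg) cells, the Foxp3-expressing T cells that restrain immune responses, of Foxp3yfpCre mice. In these mice a fusion of yellow fluorescent protein and Cre recombinase is expressed from the Foxp3 locus, in the PBS and the TSLP samples alike. The cells were taken from spleens and lymph nodes, sorted, and kept for 3 h with thymic stromal lymphopoietin (TSLP, a cytokine of epithelial cells) or with PBS as the control. Each group had 2 libraries, here called PBS 1 and 2 and TSLP 1 and 2. The mice of the study were young adults matched for sex, and which sex these samples came from was not given in the sources used here. The labels do not say that the libraries came from separate mice or cultures, so that p-values measure only the spread between these samples, which may be technical.

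The libraries held 11328132 (PBS 1), 10724392 (PBS 2), 11761234 (TSLP 1) and 10271571 (TSLP 2) reads on genes. A gene with no reads could still have up to 3 reads at this depth, or 0.255 to 0.292 cpm (reads on a gene scaled by 1000000 over the total of its library), a limit that covers counting error only because PCR copies were counted as reads. All 7 Treg cell markers examined were read in every library, and their summed level was 3692, 4223, 4157 and 4463 cpm in PBS 1, PBS 2, TSLP 1 and TSLP 2. PBS 1 had 2514 reads on Foxp3 against 5065, 4784 and 4824 in PBS 2, TSLP 1 and TSLP 2. It also had the fewest reads on Ikzf2 (6432 against 10468, 11715 and 9786), Il2ra, Cd4 and Cd3e. On Ctla4 (14544 against 12245, 14091 and 12870) and Tnfrsf18 (6025 against 3736, 4189 and 4383), PBS 1 had the most reads. The deviation of a library from the others varied with exon length, with a Spearman rho across 2636 genes, which are not independent replicates, of −0.66 for PBS 1 and 0.57, 0.40 and 0.31 for PBS 2, TSLP 1 and TSLP 2. Each deviation is relative to the other libraries, so that a trend in 1 library gives the others trends of the opposite sign. The difference between the TSLP mean and the PBS mean ran with exon length as well (rho of 0.52 across the same genes). Fold changes are therefore also given with a library left out and, for some genes, with this trend removed.

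Fatty acids enter cells partly through membrane proteins. CD36, a scavenger receptor also called fatty acid translocase, binds long-chain fatty acids at the surface, and SR-BI, the product of Scarb1, binds high density lipoprotein and takes up its lipids. FATP1 and FATP4, encoded by Slc27a1 and Slc27a4, join fatty acids to coenzyme A as they are taken up. Inside the cell, fatty acid binding proteins such as FABP5 carry them through the cytosol. DGAT1 and DGAT2 perform the last step of triglyceride synthesis, perilipin 2 (Plin2) coats the droplets in which triglycerides are kept, ATGL (Pnpla2) removes the first fatty acid from a stored triglyceride, and hormone-sensitive lipase (Lipe) acts on the diglyceride that is left. T cells use fatty acids as fuel and as material for membranes, and Treg cells are known for their use of fatty acid oxidation.

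Fabp5 lies at chr3:10012548-10016607 on the forward strand of the mouse genome (GRCm38, also called mm10). The reads were 50 bases long, and a read on Fabp5 fits another gene equally well wherever 50 bases are the same. Of the 938 stretches of 50 bases in its coding transcript, 198 (21.1%) also occurred in transcripts of 5 other genes, 184 (19.6%) of them in the processed pseudogene Gm6166 at chr9:57483963-57484371. Over the 405 coding bases of Fabp5, the Gm6166 transcript had 5 differences and 1 gap and was 98.8% identical. Coding bases 334 to 393 of Fabp5 and the same stretch of Gm6166, from the GENCODE transcripts, release M21, are shown with the 2 differing bases in capitals, because a 50-base read lying between these bases fits both genes.
Fabp5: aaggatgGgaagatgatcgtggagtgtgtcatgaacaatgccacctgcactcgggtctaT
Gm6166: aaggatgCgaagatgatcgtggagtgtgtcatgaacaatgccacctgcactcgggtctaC
The reads of Fabp5 are therefore uncertain to this extent. None of the 5 other genes, Gm6166 included, was listed in the data, and how reads that fit several genes were counted was not tested. The same count was 0 for Cd36, Scarb1, Slc27a4, Dgat1, Dgat2 and Pnpla2, 1.75% for Slc27a1, 4.89% for Plin2 and 16.2% for Lipe.

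Promoter sequences from RefSeq (GRCm38.p6), reaching from 250 bases before to 50 bases after a transcription start, covered 6 of the 10 genes with 9 promoters. Fabp5, Scarb1, Dgat1 and Dgat2 had no entry. The promoters were searched on both strands for TTCNNNGAA, the pattern bound by STAT factors such as those activated by TSLP, for the direct repeat bound by PPAR-RXR, for TATAAA and for GGGCGG, the GC box. These patterns occurred in 8.30%, 0.0396%, 13.6% and 35.7% of all 32851 promoters. Lipe was the only one of the 6 genes with a match to TTCNNNGAA, which began 3 bases before 1 of its 2 starts. Neither the PPAR-RXR repeat nor TATAAA was found in any of the 9 promoters, and a GC box was found in 7 of the 9. Cd36 and Lipe are shown from 150 bases before to 30 bases after the start, since they were the only genes with an entry in which both TSLP libraries had more reads than both PBS libraries. The Cd36 sequence is chr5:17835867-17836046 and the Lipe sequence chr7:25395958-25396137, both on the reverse strand and with matches in capitals.
Cd36: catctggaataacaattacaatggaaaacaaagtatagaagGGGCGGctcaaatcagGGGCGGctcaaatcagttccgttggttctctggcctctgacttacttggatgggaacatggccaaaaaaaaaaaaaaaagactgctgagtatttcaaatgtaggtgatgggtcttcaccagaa
Lipe: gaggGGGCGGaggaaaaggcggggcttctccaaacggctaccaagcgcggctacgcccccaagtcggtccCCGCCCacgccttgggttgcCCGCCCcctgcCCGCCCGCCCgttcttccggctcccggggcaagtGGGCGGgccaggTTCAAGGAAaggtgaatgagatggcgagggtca
Cd36 held 2 GC boxes, 109 and 93 bases before its start. Lipe held 6, of which the pair 49 and 45 bases before the start overlapped. A match describes these letters and does not show that a factor binds.

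Expression was compared between TSLP and PBS with limma on log2(normalized count + 1), a scale on which fold changes come out too small where reads are few, over the 11392 genes that reached a normalized count of 10 in 2 or more libraries. The normalized count is the read count divided by the size factor of the library. Cd36 did not pass this filter, and the other 9 genes did. None of the 9 had an adjusted p under 0.05 (Benjamini-Hochberg over all genes tested), and the adjusted p of each was 0.9999 by limma. Over all genes tested, 0.0% had an adjusted p under 0.05. Limma called 0 genes, as did edgeR and DESeq2 on the recovered reads, and an unadjusted p under 0.05 was found for 192, 234 and 234 genes by limma, edgeR and DESeq2. Of the 9 genes, 1 (Fabp5) had an unadjusted p under 0.05 by limma, against 1.69% of all genes tested. The paper had already named Cd36 and Fabp5 as higher after TSLP in these same data. The p-value of Fabp5 is therefore no independent support. The TSLP libraries were both higher than either PBS library in 2 of the 9 genes (Fabp5 and Lipe), against 14.5% of all genes tested, and both lower in 2 (Slc27a1 and Dgat2), against 14.4%. The median log2 fold change of the 9 genes was −0.04, with 3 above 0 and 6 below, and that of all genes tested was 0.01.

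**Figure D1:**
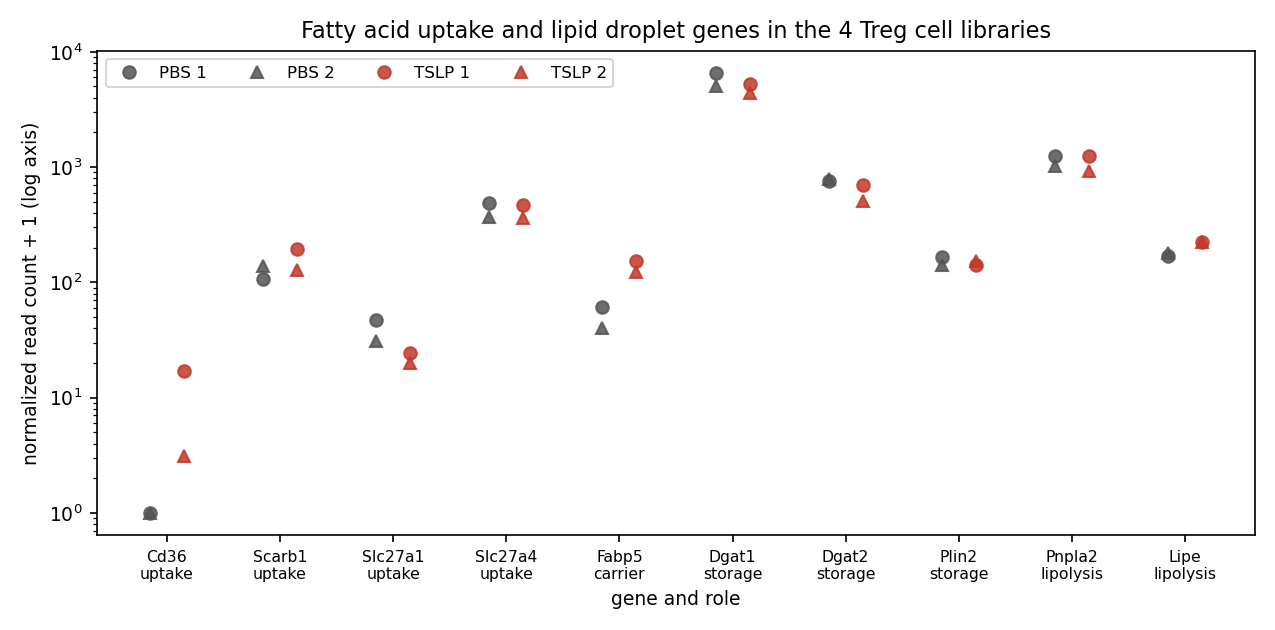
Normalized read count plus 1 (vertical log axis) of the 10 genes (horizontal axis, with the role of each) in each library, gray for PBS and red for TSLP, circles for replicate 1 and triangles for replicate 2. Both TSLP libraries lie above both PBS libraries for Cd36, Fabp5 and Lipe and below them for Slc27a1 and Dgat2, and Dgat1 has the highest counts.

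Of the uptake genes, Cd36 had reads in the TSLP libraries alone, mostly in 1 of them. Cd36 (chr5:17781690-17888801, reverse strand) had 0 reads in PBS 1 and PBS 2, 17 reads in TSLP 1 and 2 reads in TSLP 2. After TSLP its normalized count was 9.05 ± 9.85 (SD, n = 2), which was at least 3.06-fold higher than after PBS, taken at the limit of 3 reads. TSLP 2 was within this limit, and the bound rested on TSLP 1, being 5.42 from TSLP 1 alone and 0.707 from TSLP 2 alone. Without the filter on low values, the log2 fold change was 2.86 with an unadjusted p = 0.126 by limma.

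Macrophages, platelets and endothelial cells also express Cd36. The cells had been selected magnetically as CD4+ T cells and then sorted with CD4 labelling and a dye for dead cells. How fully these steps removed other cell types was not tested. Markers of other cell types were examined in the same libraries. The sum of 8 macrophage and monocyte markers was 200, 129, 108 and 98 reads in PBS 1, PBS 2, TSLP 1 and TSLP 2. Cd68 had 174, 66, 59 and 16 of these reads and Itgam 23, 19, 4 and 7, so that both were lower in both TSLP libraries. Without Cd68 the other 7 markers summed to 26, 63, 49 and 82 reads, highest in TSLP 2. Lyz2 had 1, 43, 37 and 40 reads in PBS 1, PBS 2, TSLP 1 and TSLP 2, and Csf1r had 27 reads in TSLP 2 and at most 1 elsewhere. Adgre1 and Clec4a2 had 0 reads in every library, and Marco had 8 reads in TSLP 2 and 0 elsewhere. Of 5 platelet markers, Pf4, Ppbp, Gp9 and Gp1bb had 0 reads in every library, and Itga2b had 29, 43, 9 and 50 reads in PBS 1, PBS 2, TSLP 1 and TSLP 2. All 5 endothelial markers (Cdh5, Kdr, Tek, Egfl7 and Emcn) had 0 reads in every library. The part of such cells in the Cd36 reads was not tested. Of 4 adipocyte markers, Adipoq and Cfd had 0 reads, and Lep and Plin1 had 10 and 6 reads in PBS 2 and 0 elsewhere. In the same order of libraries, 4 B cell markers summed to 7, 112, 59 and 96 reads. The sum was 77, 63, 59 and 104 for 4 dendritic cell markers, mostly Xcr1, and 152, 84, 104 and 123 for 2 CD8 T cell markers. Their part in the Cd36 reads was not tested either. In bulk RNA, fewer cells of a type and less RNA per cell cannot be told apart.

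The other uptake genes were read in all libraries, and none passed the test. Slc27a4 (chr2:29802634-29817522, forward strand) had 501 and 369 reads after PBS and 499 and 346 after TSLP. The replicates of each group were farther apart than the groups, and the log2 fold change was −0.04 (95% confidence interval −0.73 to 0.65, unadjusted p = 0.903 by limma). Scarb1 (chr5:125277087-125341094, reverse strand) had 109 and 137 reads after PBS and 206 and 121 after TSLP, so that TSLP 1 was highest and the groups overlapped. Its log2 fold change was 0.38 (95% confidence interval −0.67 to 1.43, unadjusted p = 0.437 by limma), and 0.07 without TSLP 1, 0.68 without TSLP 2 and 0.25 with the length trend removed. Slc27a1 (chr8:71568882-71587302, forward strand) had 48 and 30 reads after PBS and 25 and 18 after TSLP. Both TSLP libraries were lower, and the log2 fold change was −0.80 with a wide interval (95% confidence interval −2.84 to 1.24, unadjusted p = 0.399 by limma). It was −0.49 without PBS 1 and −1.11 without PBS 2. Within each library Slc27a4 exceeded Slc27a1 per length of gene, by a factor of 13.8 and 16.3 after PBS and of 26.4 and 25.4 after TSLP by the length of all exons, or of 7.20 and 8.48 after PBS and of 13.8 and 13.3 after TSLP by the length of 1 transcript.

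Fabp5 had the largest fold change of the 9 genes tested. It had 62 and 39 reads after PBS and 162 and 117 after TSLP, and both TSLP libraries were higher. The normalized count was 49.6 ± 14.9 (SD, n = 2) after PBS and 137 ± 21.5 (SD, n = 2) after TSLP, a log2 fold change of 1.48 (95% confidence interval 0.19 to 2.76, unadjusted p = 0.0289 and adjusted p = 0.9999 by limma). The unadjusted p was under 0.05 in all 13 settings that used the 4 libraries, at 0.0267 to 0.0466 by limma, edgeR and DESeq2, and the log2 fold changes were 1.40 to 1.52. With 3 libraries the unadjusted p by limma was 0.0320 without PBS 1, and 0.0842, 0.157 and 0.0890 without PBS 2, TSLP 1 and TSLP 2. The log2 fold changes in these fits were 1.78, 1.17, 1.32 and 1.64. Of the other fatty acid binding protein genes, Fabp3 had 25 reads in PBS 1 and 0 elsewhere, Fabp1 had 1 read in PBS 2, and Fabp2, Fabp4, Fabp6 and Fabp7 had 0 reads in every library. Of the 7 genes from Fabp1 to Fabp7, Fabp5 was thus the only one with reads in more than 1 library.

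**Figure D2:**
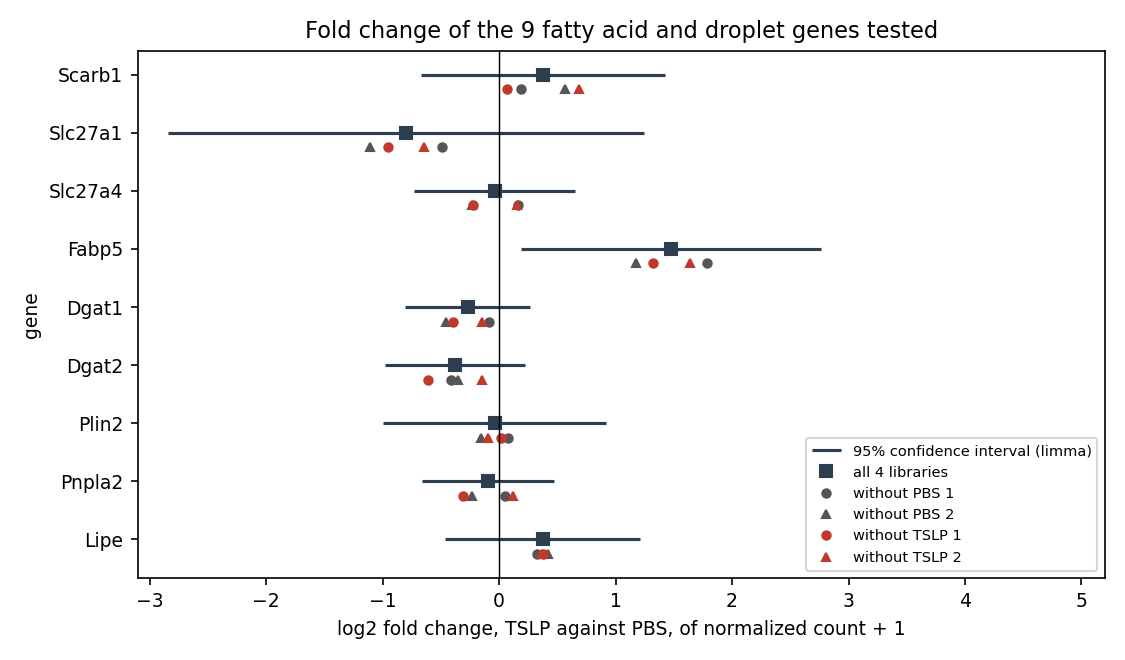
Log2 fold change of TSLP against PBS (horizontal axis) of the 9 genes tested (vertical axis) with all 4 libraries (squares, with the 95% confidence interval from limma as lines) and with 1 library left out (small symbols). The interval of Fabp5, from 0.19 to 2.76, is the only one that leaves out 0, and the values of Slc27a4, Plin2 and Pnpla2 change sign with the library left out.

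The storage genes had log2 fold changes below 0, each with a confidence interval that held 0. Dgat1 (chr15:76502015-76511953, reverse strand) was the most abundant of the 10 genes, with 6781 and 5093 reads after PBS and 5550 and 4210 after TSLP. PBS 1 was highest and the groups overlapped. The normalized count of Dgat1 was 5834 ± 1044 (SD, n = 2) after PBS and 4814 ± 586 (SD, n = 2) after TSLP, a log2 fold change of −0.27 (95% confidence interval −0.81 to 0.27, unadjusted p = 0.283 by limma). It was −0.09 without PBS 1 and −0.45 without PBS 2. Dgat2 (chr7:99153658-99182719, reverse strand) had 785 and 794 reads after PBS and 745 and 486 after TSLP. Both TSLP libraries were lower, TSLP 2 most of all, and the log2 fold change was −0.38 (95% confidence interval −0.98 to 0.22, unadjusted p = 0.185 by limma). It was −0.15 without TSLP 2 and −0.61 without TSLP 1. Plin2 (chr4:86648386-86670060, reverse strand) had 169 and 139 reads after PBS and 150 and 146 after TSLP. The groups overlapped, with a log2 fold change of −0.04 (95% confidence interval −0.99 to 0.91, unadjusted p = 0.928 by limma). The summed level of the 3 storage genes, which was mostly Dgat1, was 683, 562, 548 and 471 cpm in PBS 1, PBS 2, TSLP 1 and TSLP 2.

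The lipolysis genes did not share a direction. Pnpla2 (chr7:141455198-141460743, forward strand) had 1294 and 1029 reads after PBS and 1312 and 878 after TSLP, with overlapping groups. Its log2 fold change was −0.09 (95% confidence interval −0.66 to 0.47, unadjusted p = 0.718 by limma). Lipe (chr7:25379527-25398710, reverse strand) had 172 and 178 reads after PBS and 237 and 214 after TSLP, so that both TSLP libraries were higher. The normalized count of Lipe was 172 ± 8.05 (SD, n = 2) after PBS and 223 ± 0.262 (SD, n = 2) after TSLP, a log2 fold change of 0.37 (95% confidence interval −0.47 to 1.21, unadjusted p = 0.341 by limma), and leaving out each library gave 0.33 to 0.42. Its exons overlap those of 4732471J01Rik, an antisense gene with 0, 31, 17 and 0 reads in PBS 1, PBS 2, TSLP 1 and TSLP 2. The library kit marks strand, but the strand setting of the counting is not given in the sources used here, so that reads of this pair of genes are uncertain. Per length, Pnpla2 exceeded Lipe by a factor of 14.7 and 11.3 after PBS and of 10.8 and 8.0 after TSLP.

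Levels were compared between genes in cpm per kilobase of exon (RPKM), averaged over the 4 libraries. Dgat1 was highest at 160, above 98.1% of the 10948 tested genes with an exon length. Pnpla2 followed at 33.7 (above 86.7%), Dgat2 at 20.6 (77.2%) and Slc27a4 at 8.77 (55.7%). Plin2 was at 3.90, Lipe at 3.09, Fabp5 at 2.40 and Scarb1 at 1.52, and the level was 0.468 for Slc27a1 and 0.114 for Cd36. Neighbours in this order were apart in all 4 libraries except for Lipe and Fabp5, Fabp5 and Scarb1, and Slc27a1 and Cd36. The order depended on the length used. This was so for Fabp5, whose exons cover 3567 bases in all and 987 bases in 1 coding transcript. Lipe moved as well, from above Fabp5 to rank 8 of the 10 genes by the length of 1 transcript. By the length of 1 transcript a gene, Fabp5 was at 8.68 and the fifth in order, at 5.55 and 3.68 after PBS and 14.0 and 11.5 after TSLP. By that length Fabp5 was below Plin2 in both PBS libraries and above it in both TSLP libraries (6.76 and 7.53 for Plin2), and Scarb1 (5.13) was above Lipe (5.04), with overlapping libraries. Relative to Plin2 and by all exons, Fabp5 had a ratio of 0.361 and 0.276 after PBS and of 1.06 and 0.789 after TSLP, and by 1 transcript of 0.702 and 0.537 after PBS and of 2.07 and 1.53 after TSLP. The ratio of Dgat1 to Dgat2 was 8.71, 6.47, 7.52 and 8.74 in PBS 1, PBS 2, TSLP 1 and TSLP 2, with overlapping groups.

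**Figure D3:**
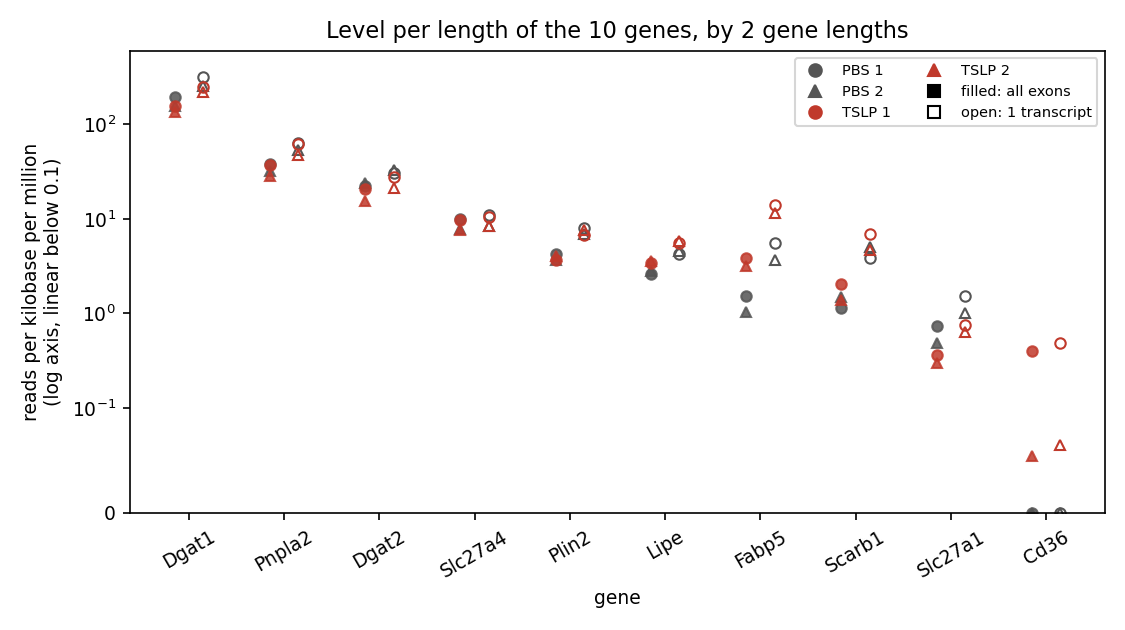
Level of the 10 genes in RPKM (vertical axis, logarithmic and linear below 0.1) in each library, by the length of all exons (filled) and of 1 transcript (open), PBS in gray and TSLP in red. Dgat1 is highest at a mean of 160 and Cd36 lowest at 0.114, and Fabp5 moves from 2.40 to 8.68 with the length used.

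Other genes of the same pathways were examined as 4 lists of 79 genes, of which 48 were tested and 19 had at most 3 reads in each library of both groups. None of the 48 had an unadjusted p under 0.05 by limma, where edgeR and DESeq2 gave 1 each (Fitm1, which passed the filter only through the PBS libraries, where it is high) and 1.69% of all genes had it by limma, and none had an adjusted p under 0.05. The smallest unadjusted p was 0.0621 by limma. The median log2 fold change was −0.09, with 18 above 0 and 30 below. The TSLP libraries were both higher than either PBS library in 6 (12.5%) and both lower in 9 (18.8%), beside 14.5% and 14.4% of all genes tested. The 9 include Slc27a3 and Fitm1, which passed the filter only through the PBS libraries, so that the filter favored their direction. Both also count among the 30 below 0, and no result about the lists is drawn from these counts.

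In fatty acid uptake and activation, 9 of 23 genes were tested, and their median log2 fold change was −0.04. Acsl4 and Acsl3, acyl-CoA synthetases that activate long-chain fatty acids, had the highest levels (43.8 and 15.4 RPKM) and log2 fold changes of 0.16 and 0.15. Slc27a3, of the same family as Slc27a1 and Slc27a4, had 25 and 21 reads after PBS and 0 and 5 after TSLP (log2 fold change −3.24, unadjusted p = 0.108 by limma). Both TSLP libraries were lower. The value was −1.92 without TSLP 1, −4.56 without TSLP 2 (unadjusted p = 0.0420 by limma) and −1.95 with a pseudocount of 5. Slc27a3 passed the filter on low values through the PBS libraries alone, where it is high, so that its p-values and its direction support nothing. Lpl, the lipoprotein lipase that frees fatty acids outside the cell, had 1 read in all libraries together, and Gpihbp1, Vldlr and Cav1 had 0 reads.

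In the list of glycerolipid synthesis, which also held genes that esterify cholesterol (Soat1, Soat2 and Lcat), 14 of 20 genes were tested. Of these, 3 had log2 fold changes above 0 and 11 below, with a median of −0.20. Gpat4, which starts glycerolipid synthesis, and Agpat3, which performs the next step, had the highest levels (18.4 and 13.7 RPKM) and log2 fold changes of −0.04 and −0.03. Lpin1, a phosphatidate phosphatase that makes the diglyceride used by Dgat1 and Dgat2, had 946 and 806 reads after PBS and 826 and 412 after TSLP. After normalization both TSLP libraries were lower, TSLP 2 most of all, with a log2 fold change of −0.57 (unadjusted p = 0.104 by limma), of −0.14 without TSLP 2 and of −0.996 without TSLP 1 (unadjusted p = 0.0382 by limma). With the trend over gene length removed, its unadjusted p was 0.0476 by limma. Plpp1, another lipid phosphatase, had 52 and 40 reads after PBS and 18 and 20 after TSLP (log2 fold change −1.21, unadjusted p = 0.202 by limma), and −1.37 to −1.05 with a library left out.

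Among the genes of the droplet coat and of droplet biogenesis, 12 of 19 were tested, with 7 log2 fold changes above 0, 5 below and a median of 0.28. Aup1 and Hilpda, proteins found on droplets, had the highest levels (40.4 and 14.4 RPKM) and log2 fold changes of −0.22 and 0.37. Rab18, a small GTPase of the droplet surface, had 585 and 592 reads after PBS and 857 and 812 after TSLP. Both TSLP libraries were higher, with a log2 fold change of 0.51 (95% confidence interval −0.03 to 1.06, unadjusted p = 0.0621 by limma), 0.44 with the length trend removed and 0.48 to 0.55 with a library left out. The unadjusted p by limma was 0.0924 with the trend removed. Spart, which encodes spartin, had 124 and 175 reads after PBS and 223 and 286 after TSLP (log2 fold change 0.78, unadjusted p = 0.0902 by limma). It was 0.51 without PBS 1, 0.53 without TSLP 2 and 1.05 without PBS 2. On the lower side, Mettl7a1 had 88 and 53 reads after PBS and 29 and 19 after TSLP (log2 fold change −1.49, unadjusted p = 0.0886 by limma), and −1.15 without PBS 1 and −1.83 without PBS 2. Fitm1, which promotes droplet formation, had 32 and 10 reads after PBS and 0 in both TSLP libraries, at least 6.88-fold lower than after PBS against the limit of 3 reads. Its unadjusted p was 0.0982 by limma, 0.0362 by edgeR and 0.00922 by DESeq2, and against the limit the bound was 10.4 from PBS 1 alone and 3.36 from PBS 2 alone. Fitm1 too passed the filter through the PBS libraries alone, where it is high, so that its p-values and its direction support nothing.

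In lipolysis and its control, 13 of 17 genes were tested, with 4 log2 fold changes above 0, 9 below and a median of −0.09. Ubxn4, which is listed for its place in protein degradation at the endoplasmic reticulum, and Lipa, the acid lipase of lysosomes, had the highest levels (44.3 and 24.4 RPKM). Their log2 fold changes were 0.05 and 0.29. No gene of this list had groups apart with a log2 fold change of 0.5 or more in either direction. Mgll, which completes lipolysis by cleaving monoglycerides, had 0 reads in every library.

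**Figure D4:**
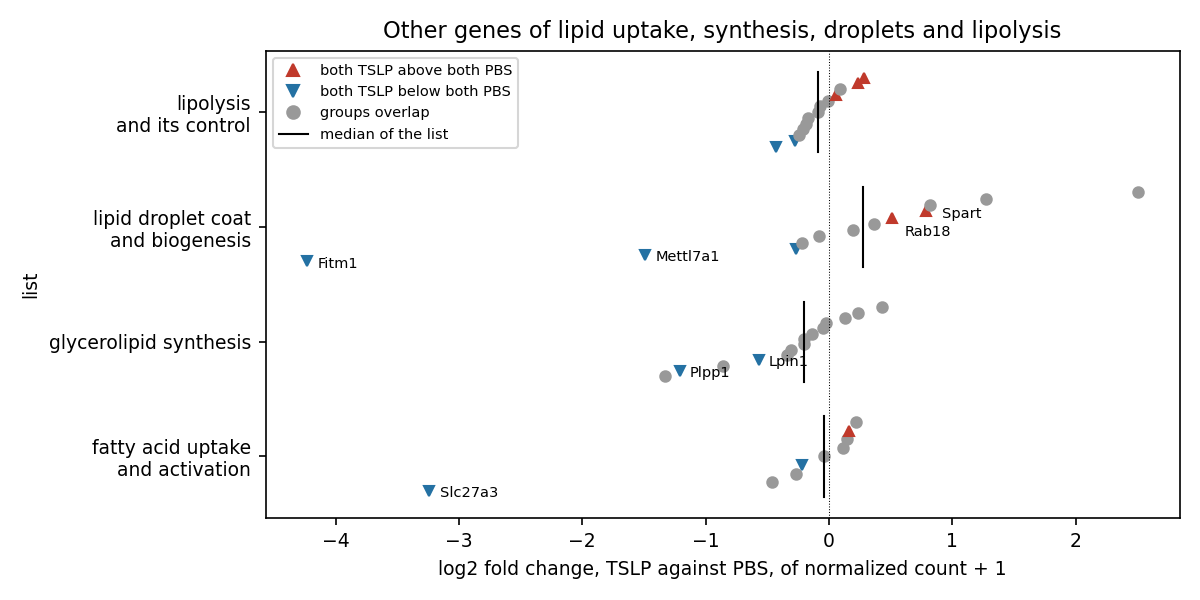
Log2 fold change of TSLP against PBS (horizontal axis) of the 48 tested genes of 4 lists (vertical axis), with triangles for genes whose groups did not overlap, gray circles for the others, and a bar at the median of each list. The medians lie between −0.20 and 0.28, and the named genes are those with groups apart and a log2 fold change of at least 0.5 in size.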

How the data were processed

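Single-end reads of 50 bases were aligned by the authors to mm10 with Hisat2 and assigned to genes with HTSeq. What they deposited is a signal, the authors' read counts divided by a DESeq2 size factor per library (1.03 for PBS 1, 0.999 for PBS 2, 1.06 for TSLP 1 and 0.957 for TSLP 2). Annotation and strand setting of the counting are not given in the sources used here. All values were whole multiples of a step within 0.01, so that reads were recovered.

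Values were tested with limma 3.58.1 in R 4.3.3 (trended empirical Bayes, two-sided, Benjamini-Hochberg over 11392 genes). Because the values are not counts, edgeR 4.0.16 and DESeq2 1.42.0 on the recovered reads were alternatives, besides other normalizations, filters, pseudocounts, a replicate block, removal of the length trend, and leaving out each library (16 in all). With 1 library left in a group, limma assumes that it varies like the other group. The limma and edgeR fits were tested on simulated data.

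The genes and lists were chosen with earlier results of these data known. Named were all 10 genes, the 2 genes of each further list with the highest RPKM, and those with an unadjusted p under 0.05 or with groups apart and a log2 fold change of at least 0.5 in size. Other genes are named as families or markers, or for having almost no reads (Lpl, Gpihbp1, Vldlr, Cav1 and Mgll). The genes under other observations were named after their values were seen. In all 79 further genes a row was found, 6 of them under older symbols. Exon lengths, positions and transcripts came from GENCODE M21, in which 23348 gene names were found, and 27 names had turned into dates.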

Additional observations from a re-analysis of the deposited data

How the results depend on the processing

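The precision was limited by 2 libraries in each group and, for Cd36, Fabp5, Slc27a1 and Fitm1, by few reads. No gene had an adjusted p under 0.05 by limma, edgeR or DESeq2 under any of the 16 alternatives, and Fabp5 remained the 1 gene of the 9 with an unadjusted p under 0.05 under all that kept the 4 libraries. The count of genes with an unadjusted p under 0.05 was 192, 358 without a filter and 79 to 1858 when a library was left out. The median log2 fold change of the 9 genes, −0.04 with all libraries, ranged from −0.24 to 0.12 when a library was left out. Slc27a4 then ranged from −0.24 to 0.16, Plin2 from −0.16 to 0.078 and Pnpla2 from −0.31 to 0.12, each changing sign. Of the 48 other genes, 0 had an unadjusted p under 0.05 by limma, 1 by edgeR with TMM or RLE scaling and by DESeq2, 2 with the length trend removed and 1 to 4 with a library left out, and without a filter it was 2 of 62. Their median of −0.09 was −0.060 over the 42 genes that passed a filter of 50, −0.15 with the length trend removed and −0.10 to −0.011 with a library left out. The cause of these shifts was not tested. The replicate numbers were not stated to pair the samples, and deviations of same-numbered samples had a correlation of 0.00072 across genes. Replicate 1 was higher in both groups in 5 of the 9 genes, against 24.0% of all genes tested. Replicate 2 was higher in both in 1 of the 9, against 25.6%. With the replicate block, 258 genes had an unadjusted p under 0.05 by limma and 215 by edgeR, and Fabp5 had unadjusted p = 0.0381 by limma and 0.0304 by edgeR.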

Other observations

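Some droplet genes varied more between the libraries of a group than between the groups. They are named here after their values were seen. Plin3, a perilipin found in most tissues, had 43 and 197 reads after PBS and 197 and 134 after TSLP, Tmem159 had 62 and 5 reads after PBS and 39 and 53 after TSLP, and Fitm2, a relative of Fitm1, had 0 and 31 reads after PBS and 49 and 20 after TSLP. In Plin3 and Fitm2 PBS 1 had the fewest reads, and in Tmem159 PBS 2 had the fewest. Lcat, from the list of glycerolipid synthesis, had 44 and 0 reads after PBS and 13 and 0 after TSLP.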
